A study of Rattus norvegicus with 14 samples.

Results

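The cytosolic ribosomal protein genes were followed through gonad development in the fetal rat. The members were all probe sets (groups of short probes for 1 transcript) whose only gene symbol was that of a large subunit protein (Rpl), a small subunit protein (Rps, including Rpsa) or the stalk protein Rplp0. The rule found 50 of the 15866 probe sets tested, for 44 of 10411 named genes. Of these, 30 probe sets stood for 28 large subunit genes, 15 for 12 small subunit genes, and 5 for the 4 paralogues Rpl3l, Rpl7l1, Rps27l and Rps4y2. A further 34 ribosomal protein probe sets carried several symbols and were not members.

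RNA was profiled on 14 single-channel Affymetrix rat arrays in 7 groups of 2. Testis and ovary of Rattus norvegicus fetuses were each taken on embryonic day 13, 14 or 16, called E13, E14 and E16. The seventh group was testis of day 13 after 3 days of organ culture on a filter over CMRL 1066 medium with insulin, transferrin and albumin. No strain, genotype or added agent was given for any group. For each sample, RNA of 20 to 40 gonads was pooled, described as independent of the other pool of its group. The p-values therefore measure the spread between 2 pools. In every group except E13 ovary that spread also includes a difference in the dates on the array labels, described further on. In whole gonads, fewer cells of a type and less RNA per cell cannot be told apart.

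A ribosome is built from ribosomal RNA and about one copy of each ribosomal protein, so cells make these proteins in matched amounts. The proteins are among the most abundant products of a growing cell, and their mRNAs share a run of pyrimidines (C and T) at the 5′ end, the 5′ terminal oligopyrimidine tract, through which mTOR signalling and the protein Larp1 control their translation. Arrays measure the mRNA and not that translation. Many ribosomal protein genes also have processed pseudogenes that are nearly identical to the mRNA, and a probe set may read such copies too.

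The sequence around the annotated transcription start, where such a tract would lie, is shown for 10 members. Of these, 6 had the smallest p, among the genes with a start site here, for a difference between sets of arrays described further on, and 4 had no called one. RefSeq start sites on the rat assembly GRCr8 were found for 37 of the 44 genes; Rpl23a, Rpl27, Rpl30, Rpl37a, Rpl7, Rps29 and Rps9 had no entry. Each stretch holds 15 bases before the start and 15 from the start onward, 5′ to 3′ on the strand of the gene, with the longest run of pyrimidines in capitals.
Rpl14, chr8:129163605-129163634, plus strand: gggcgggCCCTCTCCCTTCTCgctgagcgc
Rpl24, chr11:58128391-58128420, minus strand: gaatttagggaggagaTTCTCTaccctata
Rpl35, chr3:43165907-43165936, minus strand: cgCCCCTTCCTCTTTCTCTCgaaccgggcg
Rpl34, chr2:221962269-221962298, minus strand: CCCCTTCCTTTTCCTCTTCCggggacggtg
Rpsa, chr8:128728864-128728893, plus strand: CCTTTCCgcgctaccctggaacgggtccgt
Rps3a, chr2:173827028-173827057, minus strand: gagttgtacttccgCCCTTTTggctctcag
Rplp0, chr12:46718376-46718405, minus strand: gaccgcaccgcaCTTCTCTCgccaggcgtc
Rps15a, chr1:181860270-181860299, minus strand: cggcgTTTTCTTTCCacagtcaccatggtg
Rpl39, chrX:121195882-121195911, minus strand: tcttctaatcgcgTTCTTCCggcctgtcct
Rps4y2, chr4:183000898-183000927, plus strand: gcgcgcagCTCTCCTCactcgcttgtgctc

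A run of 10 or more pyrimidines lay within 25 bases of the start in 20 of the 37 genes (54.1%), against 8.81% of 33469 promoters in the same table. A C at the start itself, followed by 4 or more pyrimidines, was found in 10 of 37 (27%) against 2.63%. Over the whole 300 bases from 250 before to 50 after the start, counting both strands, TTCCTTT was present in 32.4% of the member genes and 9.95% of all promoters, and CTCTTTC, which may overlap the same runs, in 32.4% and 7.91%. CCGGAAG, the core of an Ets-family site, was present in 24.3% and 8.75%. TATAAA, the TATA box core, was present in 16.2% and 14.2%. These shares describe letters in the annotated windows, and a tract printed above may begin a few bases from the start that is used in the gonad.

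The labels were first set against sex markers. Amh, the Sertoli cell hormone, read 63.9 to 1092.8 in the 8 testis arrays and 9.6 to 38.5 in the 6 ovary arrays. Sry read 162.8 and 184.9 in E13 testis, 45.9 and 37.1 in E14 testis and 13.1 to 28.7 in ovary. It read 28.2 and 18.5 in E16 testis and 13.4 and 20.2 in cultured testis, within the ovary range, so it marks sex at E13 and E14 only. Xist, transcribed from the inactive X chromosome, went against the labelled sex in 4 arrays: it read 36.2, 269.2 and 151.1 in replicate 1 of E13 testis, E14 testis and cultured testis, and 12.8 in replicate 2 of E16 ovary. Among results on the members, the pattern by array described below lost its calls without these 4 arrays.

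Most members were bright. The deposited intensity averaged at least 1000 over the arrays for 40 of the 50 members, and all 4 paralogue genes, Rpl39, Rpl30 and the second probe sets of Rpl7, Rpl14 and Rps24 averaged below 600. Together the members held 5.09% to 7.14% of all signal on an array. No member had a value of 0 in any array.

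No ribosomal protein gene passed in the comparisons made. In all 9 comparisons, 0 of the 50 members passed an adjusted p of 0.05 in limma, whose Benjamini-Hochberg adjustment ran over all 15866 probe sets. A test for any difference among the 7 groups also called 0 of 50, with 1 member at an unadjusted p under 0.05, where 2.79% of all probe sets passed. The range of the 7 group means had a median of 0.37 on the log2 scale over the members and 0.58 over all probe sets. It was 0.35 for the 40 members with a mean of at least 1000, 0.47 for 83 other probe sets with a mean of at least 2000, and 0.75 for the 10 members below 600. With a pair of arrays per group the precision was coarse: the 95% confidence interval of a member's difference reached a median of 0.57 to either side. This width includes any shift between the periods of the array labels described below, which the model of 7 groups does not take out.

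**Figure D1:**
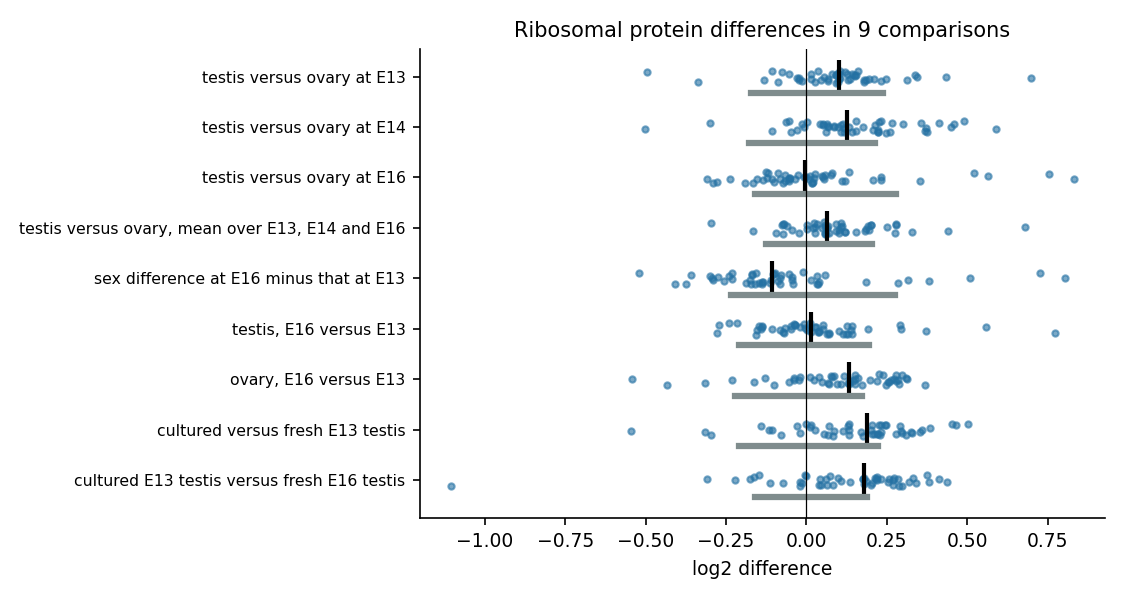
Log2 differences of the 50 ribosomal protein probe sets (points) in 9 comparisons, the first-named group minus the second, with the member median (black bar) and, in grey, the middle 50% of all probe sets. The member medians lie between -0.11 and 0.19, and 0 of 50 points passed the test in any row.

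No member was called between testis and ovary at a single age. At E13, 0 of 50 members were called (0.0126% of all probe sets were) and 0 had an unadjusted p under 0.05; the median member difference, testis minus ovary, was 0.10, with 39 of 50 above 0. At E14 the counts were again 0 and 0 (background 0.139%), the median was 0.13 and 41 were above 0. At E16, when 1.74% of all probe sets were called, 0 members passed and 2 had an unadjusted p under 0.05, with a median of -0.004 and 24 above 0. Over the 3 ages together 0 of 50 passed (background 2.31%; 2 at an unadjusted p under 0.05), and the change of the sex difference from E13 to E16 gave 0 of 50 (background 0.145%; 0 at an unadjusted p under 0.05).

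Nor was any member called from E13 to E16 or after culture. The steps through E14 were not tested one by one. Between E13 and E16, 0 of 50 members were called in testis (background 0.945%; 2 at an unadjusted p under 0.05), with a median of 0.01, and 0 of 50 in ovary (background 0.889%; 1 at an unadjusted p under 0.05), with a median of 0.13. After culture, 0 of 50 differed from fresh E13 testis (background 1.39%; 0 at an unadjusted p under 0.05), although 40 of 50 lay above 0 with a median of 0.19. Against fresh E16 testis, 0 of 50 were called (background 0.0945%; 1 at an unadjusted p under 0.05), with a median of 0.18 and 37 above 0. Large and small subunit genes had medians of 0.10 and 0.10 between the sexes at E13, 0.12 and 0.13 at E14, and 0.01 and -0.03 at E16. From E13 to E16 they were -0.01 and 0.04 in testis and 0.13 and 0.23 in ovary, and they were 0.19 and 0.25 after culture against fresh E13 testis. The difference between the subunits was not tested.

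The arrays also fall into sets by their labels, each of which ends in what reads as a date; the labels do not say what it dates. There are 8 different dates, which fall into 3 periods, called label periods here. Period 1 holds replicate 2 of every group except E13 ovary (6 arrays), period 2 holds replicate 1 of E14, E16 and cultured testis, and period 3 holds the other 5 arrays, including both of E13 ovary. In 6 groups, therefore, period and replicate number cannot be told apart.

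Among the 40 bright members, cultured testis had the highest group mean for 25 and E13 ovary the lowest for 23. Both arrays of E13 ovary are of period 3, on which bright members read low. Within a period or date, 1 or 2 arrays of a group could be compared. The E13 sex difference was -0.17 within period 3 (8 of 50 above 0) in place of 0.10. The E14 one was 0.07, and the E16 one -0.03, each between 2 arrays of 1 label date. The E16 minus E13 median was -0.13 in testis within period 1 and -0.05 in ovary within period 3. Cultured against fresh E13 testis gave -0.01 within period 1. Cultured E13 against fresh E16 testis kept its sign, at 0.14 and 0.23 within 2 label dates. Leaving out replicate 1 of E13 testis raised the E13 sex difference to 0.42 and turned the culture median to -0.11, and leaving out replicate 2 gave -0.17 and 0.46.

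The members varied together by period. On every period 1 array the ribosomal protein genes read high together: 42 to 46 of the 50 members lay above their own mean over the 14 arrays, and the median deviation was 0.14 to 0.26 on the log2 scale. On the other 8 arrays only 3 to 29 members lay above their mean, and the median deviation was -0.31 to 0.04. The median member intensity was 4021 to 4645 on the period 1 arrays and 3127 to 3864 on the others, so that the ranges did not overlap. The share of array signal in the members was 6.59% to 7.14% against 5.09% to 6.42%. The median over all probe sets moved by no more than 0.06 on any array.

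**Figure D2:**
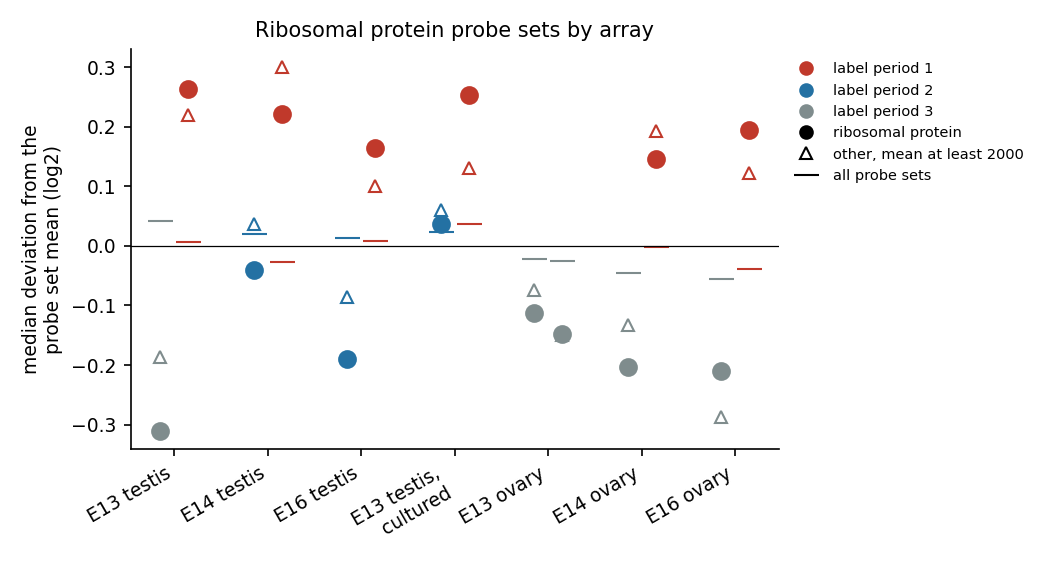
Median deviation from each probe set's own mean over the 14 arrays (log2), by group, for the 50 ribosomal protein probe sets (filled circles), the 83 other probe sets with a mean intensity of at least 2000 (triangles) and all probe sets (bars), coloured by label period. The 6 period 1 arrays lie between 0.14 and 0.26 for the ribosomal proteins and the other 8 between -0.31 and 0.04.

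The same direction was seen inside each group that held 1 period 1 array. The period 1 array exceeded its partner by a median of 0.58 in E13 testis, 0.27 in E14 testis, 0.33 in E16 testis, 0.20 in cultured testis, 0.34 in E14 ovary and 0.40 in E16 ovary, with 42 to 46 of 50 members higher each time. Over all probe sets these medians, taken after the same scaling, lay between -0.05 and 0.03. The 2 arrays of E13 ovary, which share period 3, differed by a median of 0.04, with 31 of 50 higher in replicate 1. Of the members, 36 of 50 (72%) were higher in the period 1 array in 6 of 6 groups, and 0 were lower in 6 of 6; over all probe sets 6.5% were higher in 6 of 6.

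**Figure D3:**
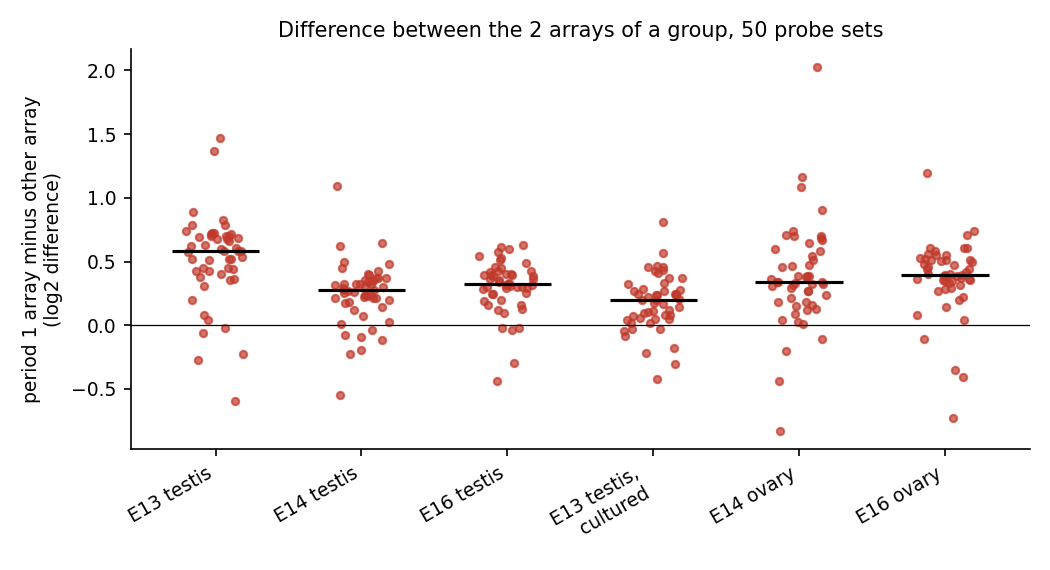
Log2 difference between the 2 arrays of a group, period 1 minus the other, for the 50 ribosomal protein probe sets (points) in the 6 groups that hold 1 array of each kind; bars are medians. The medians run from 0.20 in cultured testis to 0.58 in E13 testis.

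A limma fit with the 7 groups and a term for period 1 against periods 2 and 3 put a size on this for each member. The split was chosen after these values had been seen, so its p-values describe these arrays and are no independent evidence. The term called 19 of 50 members (38%), all higher in period 1, where 4.49% of all probe sets were called in either direction (1.76% higher). The median term was 0.35 for the members and -0.01 for all probe sets. Of the large subunit probe sets 13 of 30 were called, and of the small subunit ones 6 of 15; a difference between the subunits was not tested. None of the 5 paralogue probe sets was called, and 1 of those had an unadjusted p under 0.05. Of the 40 bright members all had a term above 0 and 19 were called; of the 10 members below 600, 6 were above 0 and 0 were called, 3 with an unadjusted p under 0.05.

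Rpl24, a large subunit protein at the interface with the small subunit, had the largest called term at 0.55 ± 0.10 (SE, adjusted p = 0.0184, limma). It read 3202.3, 3201, 2959, 2734, 2359.1 and 2984.2 on the period 1 arrays of cultured, E13, E14 and E16 testis and E14 and E16 ovary. The partner arrays read 2403.7, 1995.3, 2282.6, 1889, 1443.2 and 1955.9, and the E13 ovary arrays 1655.4 and 2109.9. Every partner array was lower, although the period 1 array of E14 ovary lay below the other array of cultured testis.

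Rps29, a small zinc-binding protein of the 40S head, read 8778, 7250.4, 7437.8, 7576.7, 8196.3 and 7192.7 on the same 6 period 1 arrays. Its partner arrays read 7396.4, 4450.3, 6358.5, 5088.3, 5025.4 and 4995.6, with 5035.2 and 4793 in E13 ovary. Only the partner array of cultured testis reached the period 1 range. The term was 0.50 ± 0.10 (SE, adjusted p = 0.0258).

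Rpl14, a 60S protein, read 3246, 3227.3, 3099, 3202.6, 3157.3 and 3428.6 on the period 1 arrays and 2099.6 to 2509.7 on all 8 others, so that its sets did not overlap; its term was 0.48 ± 0.08 (SE, adjusted p = 0.0173). The groups themselves lay close, since the range of the Rpl14 group means was 0.28. The other called terms were 0.53 for Rpl35, 0.46 for Rps15 and Rpl26, 0.45 for Rpsa and Rps3a, and between 0.36 and 0.44 for Rpl23, Rpl37a, Rpl23a, Rpl19, Rpl22, Rpl27, Rps9, Rpl34, Rps24, Rpl41 and Rpl3. Among the 6 called genes whose start sequences are printed, Rpl14, Rpl35 and Rpl34 carry a run of 14, 18 and 20 pyrimidines around the start, whereas the longest run of Rpl24, Rpsa and Rps3a in the same window is 6, 7 and 7.

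The other 21 bright probe sets had terms of 0.17 to 0.41 that were not called. Rpl18, at 0.41, came next to the threshold with an adjusted p of 0.0504. Rps28, Rpl21, Rpl5, Rpl27a, Rpl13a, Rps3, Rpl11, Rps16, Rpl6, Rpl7 and a second Rpsa probe set lay between 0.30 and 0.36. Rps6, the substrate of the S6 kinases, lay with Rpl4, Rpl7a, Rps23, Rpl35a, Rplp0, Rpl12, the third Rpsa probe set and Rps15a between 0.17 and 0.29. Rpl5 and Rpl11, which together with 5S RNA bind the p53 inhibitor Mdm2, had terms of 0.35 and 0.31.

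**Figure D4:**
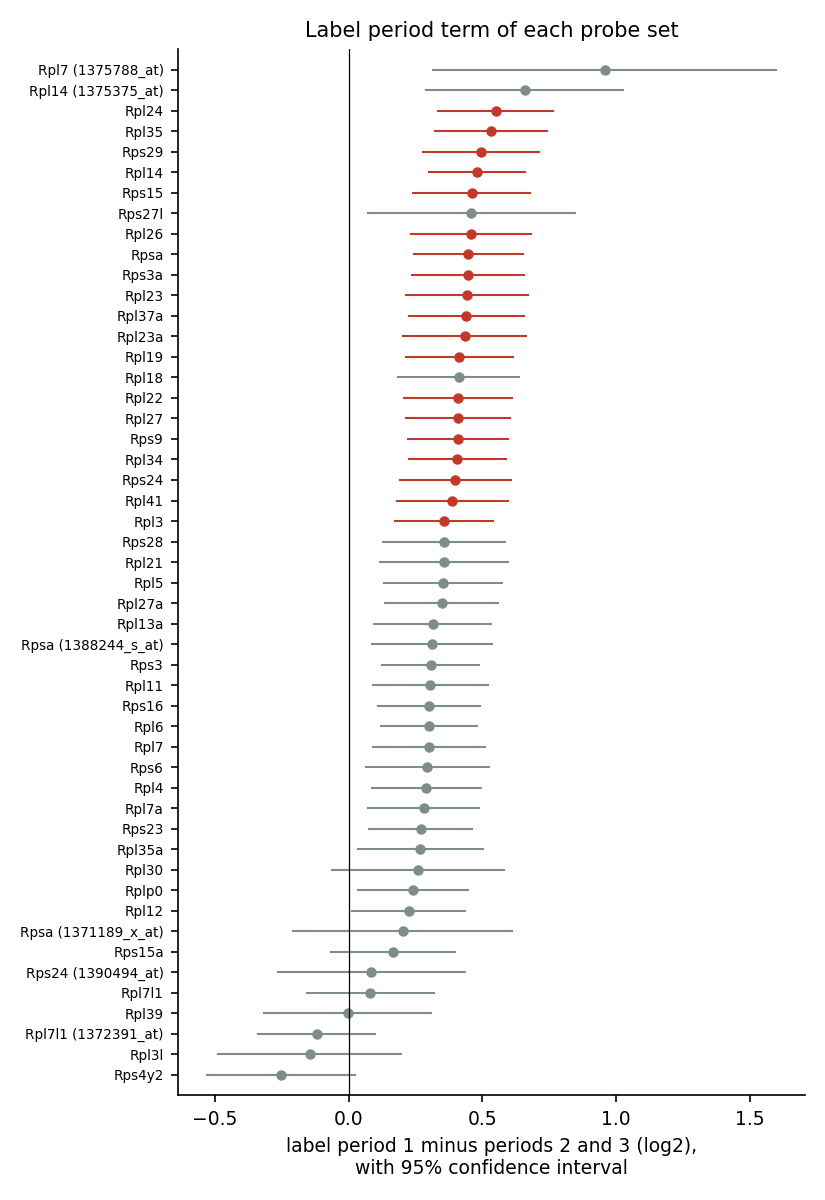
Term for period 1 against periods 2 and 3 (log2) for each of the 50 ribosomal protein probe sets, with its 95% confidence interval; red points passed an adjusted p of 0.05 in limma. The 19 called terms run from 0.36 to 0.55, and Rps4y2, Rpl3l and Rpl7l1 lie at the lower end.

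Other bright genes shared the shift. Among the 83 probe sets that were not members and averaged at least 2000, the period 1 arrays deviated by 0.10 to 0.30 and the others by -0.29 to 0.06; the term called 18 higher and 1 lower (22.9%), with a median of 0.29, and 43 of 83 (51.8%) were higher in 6 of 6 groups. The top of the whole intensity scale moved as well: the 99th percentile of an array was 2069 to 2283 in period 1 and 1666 to 2022 in the others. Most bright members averaged above 2000 and are part of that top, so the percentile is not separate from them. Quantile normalization evens out this top, whichever genes carry its shift. After quantile normalization, which gives every array the same distribution of intensities, the member median was 0.05. The term then called 0 of 50 members, where 3.02% of all probe sets were called. An unadjusted p under 0.05 was reached by 6 of 50 members and by 3511 of 15866 probe sets. The median of the 83 other bright probe sets was then -0.02.

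Calls fell when any 1 array was left out, also 1 of E13 ovary, whose arrays share period 3. Each array left out also lowers the residual degrees of freedom of every probe set. Whether the fall in calls was particular to the members was not tested. With 1 array left out, the period term itself kept a member median of 0.32 to 0.39. It called 14 members without either cultured array, 4 without either E14 testis array, 3 without either array of E13 testis, E16 testis or E13 ovary, 1 without either E16 ovary array and 0 without either E14 ovary array, with 46 or 47 members above 0 each time. Without the 4 arrays with discordant Xist it called 0, with 45 above 0. Signs of RNA quality overlapped between the periods: the actin 3′ to 5′ ratio was 1.60 to 2.97 in period 1 and 1.47 to 3.34 in the others. Summed red blood cell markers (4 of 6 measured), which rose with age, read 208.4 to 7644.7 and 314.4 to 6053.9. The part of either in the shift was not tested.

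The bright members followed each other closely across arrays. Their correlation over the 14 arrays with the median of the remaining bright members had a median of 0.91, against 0.68 for the other bright probe sets and 0.11 for the 10 members below 600. The points share array scaling and brightness, so this is a description only. One component held 77.1% of the variance of the bright members, and 28.9% after quantile normalization.

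A few members had patterns of their own. Rps15a, a 40S protein, had the widest range of group means among the bright members, 0.76, without passing the test over the 7 groups (adjusted p = 0.369). It read 4903.9 and 4657.6 in E14 testis, 3992.6 and 3927.2 in E16 testis, 3594.2 and 3480.5 in cultured testis and 2893.2 and 3593 in E13 testis. In ovary it read 2970.5 and 2673.8 at E13, 3205.4 and 4023.8 at E14 and 2835.6 and 4011.3 at E16. Both E14 testis arrays lay above all 12 others. The E14 sex difference was 0.41, with an adjusted p of 0.666, and the mean over ages was 0.28 ± 0.12 (SE, adjusted p = 0.221), so neither passed in limma; with period as a block the mean over ages was 0.07. Its period term was 0.17.

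Rps4y2 encodes a version of the small subunit protein Rps4 and, despite the Y in its name, lies on chromosome 4 in GRCr8. It had the widest range of group means, 1.16. It read 179.5 and 130 in cultured testis, the lowest values of all 14 arrays. Fresh testis read 255.5 and 208.4 at E13, 242.5 and 246.7 at E14 and 335.6 and 359.2 at E16. Ovary read 310.6 and 282.1 at E13, 476.1 and 260.6 at E14 and 375.1 and 347.4 at E16. Cultured minus fresh E13 testis was -0.55 ± 0.25 (SE, adjusted p = 0.412), which did not pass. Cultured minus fresh E16 testis was -1.10 ± 0.25 (SE), and the 95% interval ran from -1.66 to -0.55; the adjusted p in limma was 0.263, and 0.04996 with the label date as a random block. Within the 2 label dates that hold both groups the difference was -1.36 and -0.85. The test for any difference gave an adjusted p of 0.125, and 0.0269 without replicate 2 of E14 ovary. Its correlation with the median of the bright members was -0.50, the lowest of the members, and its period term was -0.25 (adjusted p = 0.256).

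Rpl39, a very short protein near the peptide exit tunnel, read 184.6 and 229.3 in E16 testis against 156.9 and 114.4 in E16 ovary, so these groups did not overlap. The other groups read 230.2 and 194.1 in E13 testis, 214.9 and 249.5 in E14 testis, 172.2 and 262.9 in cultured testis, 202.8 in both E13 ovary arrays and 207.3 and 148.7 in E14 ovary. The E16 sex difference was 0.56 ± 0.24 (SE, adjusted p = 0.351), and 0.92 with an adjusted p of 0.0312 when period was a block. The mean over ages was 0.33 (adjusted p = 0.222), and 0.63 (adjusted p = 0.0368) with the block. In the label dates that hold both sexes it was 0.69 at E14 and 0.91 at E16, each between 2 arrays. The E16 pair holds replicate 2 of E16 ovary, an array with discordant Xist (12.8). Replicate 1 of E16 ovary had the highest actin 3′ to 5′ ratio of all arrays, 3.34. The period block is partly tied to sex, since period 2 holds only testis arrays and period 3 mostly ovary arrays. The Rpl39 term for period 1 against periods 2 and 3 was -0.003 (adjusted p = 0.994, limma).

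**Figure D5:**
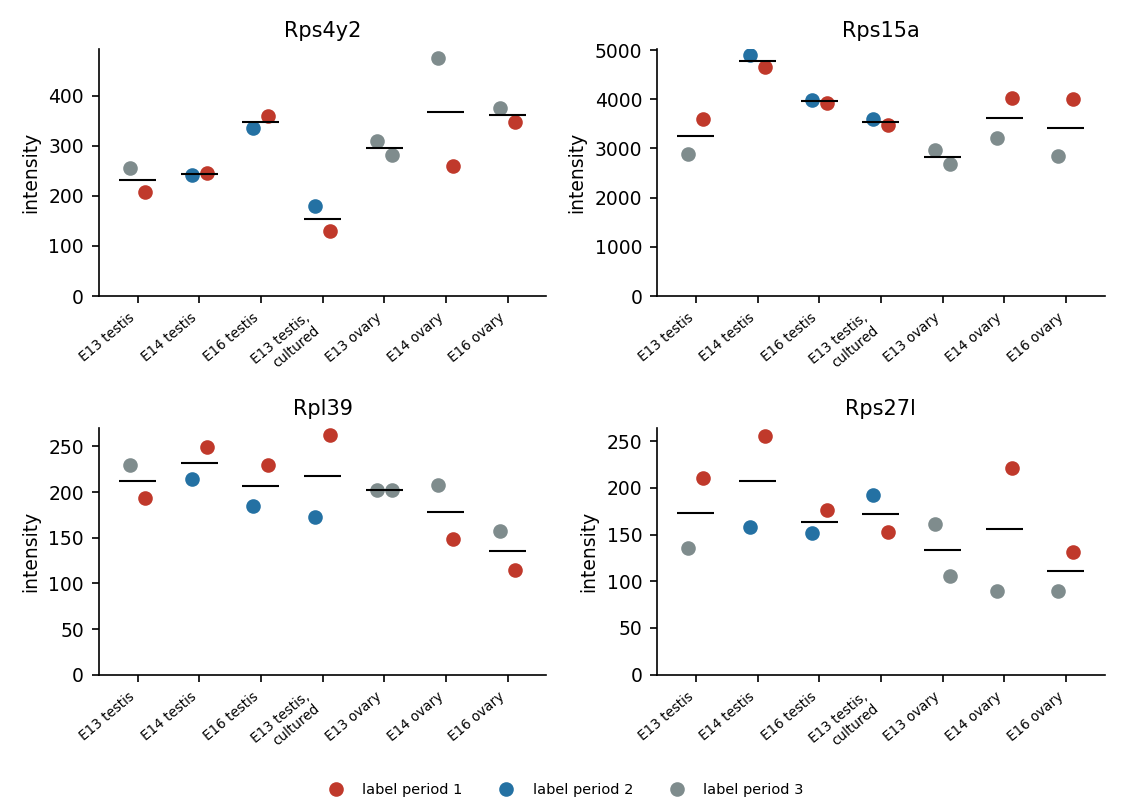
Deposited intensity of Rps4y2, Rps15a, Rpl39 and Rps27l in each of the 14 arrays (points, coloured by label period) with the group mean (bar), on linear axes that start at 0. The 2 cultured arrays are the lowest of 14 for Rps4y2, and the 2 E14 testis arrays the highest for Rps15a.

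The other paralogues gave no call. Rps27l, a p53-responsive relative of Rps27, read 89.9 to 255.9; testis minus ovary over the ages was 0.44 ± 0.22 (SE, adjusted p = 0.289), and replicates of E14 ovary alone spanned 89.9 to 221.4. Rpl7l1, a nucleolar relative of Rpl7, had 2 probe sets that read 289.7 to 452.8 and 360.4 to 548.5 and differed in sign between the sexes at E16, at -0.29 and 0.12. Rpl3l, which is known for replacing Rpl3 in striated muscle, read 2.4 to 16.4 in every array, while Rpl3 read 4478.7 to 6747.3. Rps3a, a small subunit protein that is no copy of Rps3 despite its name, read 3720.9 to 6694.6 and Rps3 3226.4 to 5007.9.

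Rplp0 anchors the acidic stalk that recruits translation factors. It read 2777 to 4386.7, and E14 ovary held its highest group mean at 3976 ± 17 (SD, n = 2) against 3231 ± 225 (SD, n = 2) in E14 testis. Testis minus ovary over the ages was -0.17 ± 0.12 (SE, adjusted p = 0.455), a sign opposite to the member median of 0.06. Rpsa, the small subunit protein also known as the laminin receptor, had 3 probe sets. The brighter pair, with means of 4092 and 3276, gave E16 minus E13 differences in ovary of 0.31 and 0.31, and the third, with a mean of 1204, gave 0.10; in testis they gave 0.14, 0.14 and -0.28.

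Probe sets of 1 gene could differ where one was bright and the other dim. Rps24 read 3793.1 to 6186.6 on its bright probe set, with an E16 minus E13 difference in testis of -0.07, and 42.1 to 107 on its dim one, with 0.77 (adjusted p = 0.294). Rpl7 read 3391.9 to 5172.3 and 112.1 to 612.5; the dim probe set had a range of group means of 1.15 and a period term of 0.96 (adjusted p = 0.0845), neither called. Rpl14 read 14 to 75.2 on its dim probe set. Rpl30, seen only on a dim probe set of 16.4 to 75.5, had an E16 sex difference of 0.83 ± 0.28 (SE, adjusted p = 0.222).

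At the other end, Rpl6 had the smallest range across groups. Its group means ran from 4101 ± 400 (SD, n = 2) in cultured testis to 4458 ± 731 (SD, n = 2) in E16 ovary, a range of 0.11. Replicates were farther apart than groups, since E13 testis read 3608.9 and 4772.5. Rpl12, Rps24 (bright probe set) and Rps9 followed with ranges of 0.22, 0.22 and 0.23.

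Genes that act with the ribosome were taken from 4 lists. In each of the 9 comparisons 0.0126% to 2.31% of all probe sets passed. At that share, lists of this size hold few calls or none. Of 28 translation factors and other genes with a 5′ terminal oligopyrimidine tract, 1 rose in testis over ovary at E16, and 0 passed in the other 8 comparisons. That gene was Vim, which encodes the intermediate filament protein vimentin and no part of the translation machinery: it read 2021.2 and 2538.8 in E16 testis and 1110.7 and 1137.6 in E16 ovary, a difference of 1.00 (adjusted p = 0.0247). Of 15 genes of the Myc, mTOR and p53 responses, 1 passed: Ccng1, the p53 target cyclin G1, rose after culture from 146.2 and 102.4 in fresh E13 testis to 343.2 and 421.2, a difference of 1.52 (adjusted p = 0.0049). Of 37 ribosome biogenesis genes and 71 mitochondrial ribosomal protein genes, 0 passed in any of the 9 comparisons. Their medians ranged from -0.17 to 0.08 and from -0.16 to 0.12.

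The period term had lower medians in these lists than the 0.35 of the cytosolic ribosomal proteins. Over all probe sets the term called 4.49% in either direction. It called 4 translation genes higher and 1 lower of 28 (median 0.18), and 8 of 71 mitochondrial ribosomal protein genes higher (median 0.15). It called 1 of 37 biogenesis genes higher (median 0.03), and 1 higher and 2 lower of the 15 growth control genes (median -0.31). The lists were not matched to the members for brightness. Among the members, the median term was 0.36 for the 40 bright ones and 0.08 for the 10 below 600. No difference between these lists was tested.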

How the data were processed

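The deposited intensities, 1 per probe set and array on a linear scale, were used as given; which software made them is not given in the sources used here. Each array had been scaled to a mean of 125 after trimming 2% at each end. Of 15923 probe sets, 57 controls were left out. Platform annotation gave 12783 probe sets 1 symbol, 312 several and 2771 none.

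Values were taken as log2(intensity + 16), which understates changes of dim probe sets. A model of 7 groups was fitted to 14 arrays with limma 3.58.1 in R 4.3.3 (7 residual and 4.16 prior degrees of freedom), with Benjamini-Hochberg adjustment over all 15866 probe sets. Comparisons that use the same arrays are not independent. Scripts were tested on simulated data.

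The members and lists were chosen with earlier results of these data known. Named were members that passed, the 4 widest and 4 narrowest ranges, paralogues, stalk proteins, genes with several probe sets and list genes that passed; Rps15a, Rpl39, and the members of the period comparison were named after their values were seen. Alternatives were the offset, normalization, a filter on dim probe sets, blocks, the prior and left-out arrays. The number of arrays, 2 per group, limits the precision.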

Additional observations from a re-analysis of the deposited data

How the results depend on the processing

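Each of the 9 comparisons and the test over 7 groups was repeated under 24 settings, and in 236 of 240 results 0 members passed. One member passed in the E16 and mean sex differences with label period as a fixed block (1 each, Rpl39), 1 in cultured against E16 testis with label date as a random block (Rps4y2), and 0 to 1 in the test over all groups when arrays were left out. With the replicate block, 0 members passed in all 10. The replicate numbers are not stated to pair the arrays, although 15 of the 21 correlations used to check this were over 0.1 (median 0.17). In all groups but E13 ovary the replicate number goes with the label period. The period term, an added comparison, called 19 members; 0 with an offset of 1 (smallest adjusted p 0.0532, 40 unadjusted), 0 after quantile normalization, 0 to 14 with an array left out, 0 without 4 arrays with discordant Xist, 0 without the 2 arrays of highest actin ratio and 0 with the replicate block. It called 28 after median centring, where 6.09% of all probe sets were called. It called 28 of 47 with a mean of at least 50, where 13.3% of the probe sets kept were called, and 28 with a mean-variance trend. The share over all probe sets was 4.49% in the main fit, 0.7% with an offset of 1 and 3.02% after quantile normalization. For the trend, the replicate block and the left-out arrays, whether the change was particular to the members was not tested. With the replicate block, only E13 ovary tells period from replicate number, so 0 calls there decide nothing. With that block 45 of 50 members stayed above 0. The cause of these changes was not tested. Signals below 100, as in 4 members, limit what can be said of Rpl3l and Rpl30.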

Other observations

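The 34 ribosomal protein probe sets with several symbols, left out of the members by their naming, had a median period term of 0.40. Of these, 21 of 34 were called higher and 0 lower, where 1.76% of all probe sets were called higher. In the test over the 7 groups 0 of 34 passed, which is near the 2.79% of all probe sets that passed. The control probe for 5S ribosomal RNA, a component of the large subunit, read 23.8 to 158.7 on the period 1 arrays and 63.2 to 1230.9 on the others, with its highest value in replicate 1 of E16 ovary.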
